A study of Mus musculus with 8 samples.

Results

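Integrins and laminins are the receptors and the sheet-forming proteins by which cells hold on to the matrix beneath them. All genes of the deposited count table were taken whose symbol names an integrin α subunit (Itga followed by a number or by d, e, l, m, v or x), an integrin β subunit (Itgb followed by 1 digit) or a laminin chain (Lama, Lamb or Lamc followed by a number). This gave 37 genes of 23284: 26 integrin and 11 laminin genes. The RNA was from the pancreas of mice of the strain CBA x C57BL/6J with the alleles Dclk1-CreERT and tdtomato. Dclk1+ cells gave libraries 1 to 4 and Dclk1- cells gave libraries 5 to 8, and values of each set are given in that order. Dclk1-CreERT is an inducible Cre recombinase driven from Dclk1, and tdtomato is a red fluorescent reporter. Both groups came from mice of this genotype. The age of the mice, the time and dose of induction, the sorting gate and the origin of libraries from separate or pooled mice are unstated in the labels. The tests therefore measure the spread between these libraries, which may be technical.

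An integrin is a pair of 1 α and 1 β subunit that spans the cell membrane. The β1 subunit pairs with most α subunits and serves epithelial and stromal cells as a receptor for collagen, fibronectin and laminin. The β2 subunit is carried by leukocytes, where αL, αM, αX or αD sits beside it, and β7 pairs with α4 or αE on lymphocytes. A laminin is a trimer of an α, a β and a γ chain that forms the basement membrane, the thin sheet under ducts and acini and around vessels and smooth muscle cells. Chains α2 and α4 are typical of mesenchyme, muscle and vessel walls, while α3 and α5 are typical of epithelia.

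The libraries held 6353841 to 10282911 counts, and levels are given as counts per 1000000 of the scaled library size (CPM), in which 3 counts were worth 0.306 to 0.579 CPM. Dclk1, the check of the labels, was at 131, 221, 53.3 and 17.9 CPM across the Dclk1+ set and 7.35, 15, 14.9 and 2.67 CPM across the Dclk1- set. The groups did not overlap, but Dclk1+ library 4 was close to Dclk1- libraries 6 and 7, and the edgeR adjusted p of 0.0503 missed the threshold of 0.05. Dclk1- libraries 7 and 8 stood apart: the ribosomal precursor Rn45s took 34.2% and 26.1% of their counts, against 8.9% to 18.3% elsewhere. They held counts for 14121 and 13958 genes, against 14935 to 16485, and 6 and 5 of the 37 genes were at 0 there, against at most 1 in any other library. Markers of several cell types were present. The summed level of 6 fibroblast markers was 8074, 25243, 13420.0 and 4529.5 CPM in Dclk1+ libraries 1 to 4, and that of 6 pericyte and smooth muscle markers 1792, 274, 179.6 and 103 CPM. The sum of 8 duct epithelium markers was 500.0, 97.4, 1947 and 359 CPM and that of 7 myeloid markers 167, 44.6, 784 and 5352 CPM. Dclk1+ library 2 thus had the most fibroblast and least duct RNA of the 4, and library 1 the most smooth muscle RNA. Library 3 had the most duct RNA and library 4 the most myeloid RNA. The sum of 6 endothelial markers was also highest in library 1, at 1942 CPM. Of 6 acinar markers of the pancreas 5 were abundant in both groups, while Prss1 had at most 2.89 CPM and was not tested (all 6 summed to 12320.0 to 53818 CPM over the Dclk1+ set and 2926 to 58960.0 CPM over the Dclk1- set, 0 of 5 tested called). The 3 Schwann cell markers tested and the 2 platelet markers tested held no call either, and Sox10, which defines Schwann cells, was at 0 in every library but Dclk1+ 3. The Schwann markers summed to 18.5 to 93.1 CPM over the Dclk1+ set and 85.9 to 146 CPM over the Dclk1- set. Exons of 11 of the 37 genes (Itga1, Itga4, Itga7, Itga8, Itga10, Itgad, Itgam, Itgb4, Lama2, Lama3 and Lamc3) share bases with another annotated gene, so their counts are less certain.

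Dclk1+ cells had more RNA of the β1 integrin gene Itgb1 and of Itga9, an α partner of β1, and of the laminin chain gene Lamb2. They were among 4 genes that passed an adjusted p of 0.05 in edgeR's quasi-likelihood test, all higher in Dclk1+ cells, out of 34 genes of the 37 that had enough counts to be tested. That is 11.8% of the tested integrin and laminin genes called higher, where 2.47% of all 13274 genes tested were called higher. None was called lower, where 1.02% of all genes were. Before adjustment 21 of the 34 had a p under 0.05 (31.9% of all genes did), of which Itgal and Itgb7 had a negative fold change. DESeq2 and limma-voom called those 2 lower. DESeq2 called 19 of the 34 higher, where it called 16.8% of all genes higher and 7.35% lower. Limma-voom called 5 higher, where it called 3.07% of all genes higher and 3.58% lower. The groups did not overlap for 8 tested genes that were higher in every Dclk1+ library and for 2 that were lower (23.5% and 5.88%, against 10.7% and 10.9% of all genes). The median log2 fold change was 1.95 for 9 stromal or broadly used integrin genes and 2.30 for 6 epithelial integrin genes. It was 2.67 for 10 laminin genes and -1.72 for 7 leukocyte integrin genes, beside -0.08 for all genes tested. The calls lay close to the threshold: 17 of the 34 genes had an adjusted p under 0.1 (50.0%, against 21.1% of all genes). When a single library other than Dclk1+ library 4 was left out, no gene at all was called, and so none of the 34. In these fits 15 to 22 of the 34 and 3092 to 4005 of all genes had an unadjusted p under 0.05 in edgeR. Without Dclk1+ library 4 14 of the 34 were called higher and 4 lower, and so were 12.1% and 6.23% of all genes. Without Dclk1- libraries 7 and 8 no gene at all was called. The log2 fold changes were then 3.26 for Itga9, 1.35 for Itgb1 and 2.76 for Lamb2 (edgeR adjusted p = 0.126, 0.132 and 0.13). In bulk RNA, fewer cells of a type and less RNA per cell cannot be told apart, which holds for every difference that follows.

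**Figure D1:**
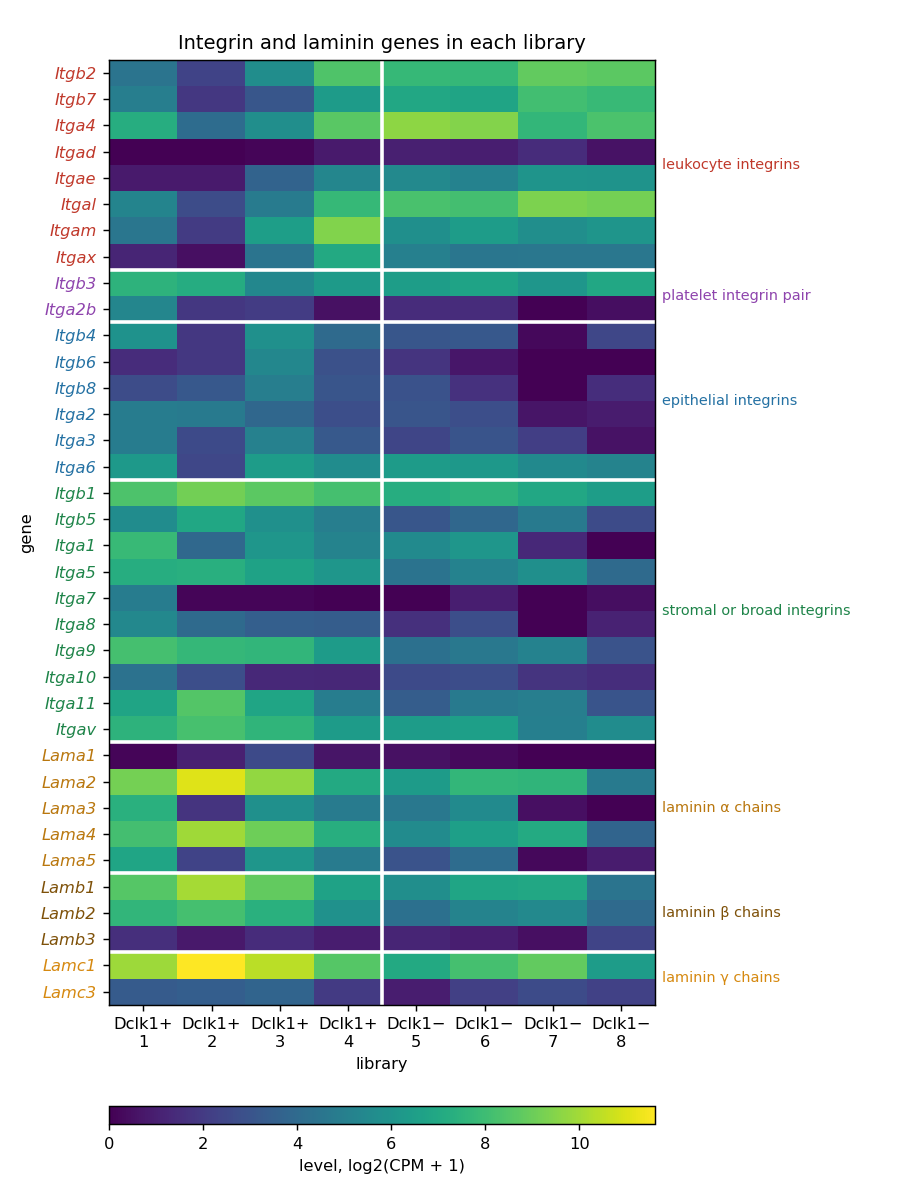
Level of 36 integrin and laminin genes in each library, as log2(CPM + 1), with genes grouped by the cells or chains they are known for and a white line between the 4 Dclk1+ and 4 Dclk1- libraries. Leukocyte integrins are bright in the Dclk1- libraries and Dclk1+ library 4, and laminin chains Lama2, Lama4, Lamb1 and Lamc1 are brightest in Dclk1+ library 2, where Lamc1 reached 3138 CPM.

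Itgb1 was at 331, 571, 413 and 289 CPM across the Dclk1+ set and 151, 179.8, 125 and 88.7 CPM across the Dclk1- set. All 4 Dclk1+ values exceeded all 4 Dclk1- values. The group levels were 401 ± 125 CPM for Dclk1+ against 136 ± 38.8 CPM for Dclk1- (SD, n = 4 each), and the log2 fold change was 1.56 ± 0.36 (SE), with a 95% interval of 0.76 to 2.36 and an adjusted p of 0.0492 in edgeR. Itga9, whose α9β1 receptor binds tenascin, osteopontin and the cell adhesion molecule Vcam1, was at 290.3, 213, 198 and 81.3 CPM across the Dclk1+ set and 18.7, 24.4, 34 and 6.85 CPM across the Dclk1- set. The lowest Dclk1+ value, in library 4, was more than the highest Dclk1- value, in library 7. Its log2 fold change was 3.22 ± 0.56 (SE), with a 95% interval of 1.96 to 4.48 and an adjusted p of 0.0466 in edgeR, and among all 13274 genes it ranked 56th by p. The promoter windows of both genes, 250 bases up to the annotated start, are shown from RefSeq (build GRCm38.p6, while the counts were made on mm9), since both genes were called. Capitals mark matches on either strand to GAGGAA, the core bound by the ETS factor PU.1, and to GGGCGG, the GC box of Sp factors.
Itgb1, chr8:128685404-128685653 (+ strand): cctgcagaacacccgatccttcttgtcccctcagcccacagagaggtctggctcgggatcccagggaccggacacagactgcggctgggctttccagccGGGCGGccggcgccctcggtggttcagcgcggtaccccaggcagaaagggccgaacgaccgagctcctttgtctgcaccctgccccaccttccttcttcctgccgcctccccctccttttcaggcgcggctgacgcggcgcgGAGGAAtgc
Itga9, chr9:118711442-118711691 (+ strand): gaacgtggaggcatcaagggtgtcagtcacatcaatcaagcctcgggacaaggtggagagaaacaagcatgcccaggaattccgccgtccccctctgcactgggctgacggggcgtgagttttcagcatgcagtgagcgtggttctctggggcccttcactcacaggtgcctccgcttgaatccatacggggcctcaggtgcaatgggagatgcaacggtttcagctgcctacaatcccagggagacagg
The Itgb1 window held 1 match to each motif and the Itga9 window none. GAGGAA occurred in 23.3% and GGGCGG in 32.7% of the 32851 windows of the same length in the table, and in 13 and 9 of the 26 windows it holds for 23 of the 37 genes.

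Other stromal or broadly used integrin genes had positive fold changes and did not pass the threshold. Itga5, the α subunit of the fibronectin receptor, was at 149, 161, 103 and 68.2 CPM across the Dclk1+ set and 20.6, 34.9, 54.1 and 15.2 CPM across the Dclk1- set. These groups did not overlap, and the log2 fold change was 1.95 ± 0.46 (adjusted p = 0.0503 in edgeR). Itga11, a collagen receptor subunit of fibroblasts, was at 108, 364, 112 and 29.2 CPM across the Dclk1+ set and 9.84, 26.9, 30.3 and 7.18 CPM across the Dclk1- set. Dclk1+ library 2, the library richest in fibroblast markers, was far above the rest. Library 4 at 29.2 CPM lay within the Dclk1- values, so the groups overlapped (log2 fold change 3.04 ± 0.78, adjusted p = 0.0536 in edgeR). Itgb5, which pairs with αV as a vitronectin receptor, was at 49.2, 119.9, 56.5 and 30.1 CPM across the Dclk1+ set and 7.64, 13.8, 26.1 and 5.34 CPM across the Dclk1- set. Here the groups were apart by a small margin, between Dclk1+ library 4 and Dclk1- library 7 (log2 fold change 2.28 ± 0.59, adjusted p = 0.0544 in edgeR). Itgav itself, the αV subunit shared by β1, β3, β5, β6 and β8, was at 83 to 302 CPM over the Dclk1+ set and 31.3 to 93.2 CPM over the Dclk1- set, with a log2 fold change of 1.56 ± 0.48 (adjusted p = 0.0702 in edgeR). Itga8, the nephronectin receptor subunit found on mesenchymal and smooth muscle cells, was at 41.6, 15.4, 10.5 and 9.78 CPM across the Dclk1+ set and 2.06, 5.82, 0 and 1.17 CPM across the Dclk1- set. Dclk1+ library 1 was the highest and no values were shared between the groups (log2 fold change 3.06 ± 1.0, adjusted p = 0.08 in edgeR).

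Itga1, Itga7 and Itga10 were high in 1 Dclk1+ library. The collagen receptor subunit Itga1 was at 227, 14.1, 68.6 and 36 CPM across the Dclk1+ set and 46.3, 68.3, 1.55 and 0 CPM across the Dclk1- set, so that Dclk1+ libraries 2 and 4 were below Dclk1- libraries 5 and 6 (log2 fold change 1.57 ± 1.40, adjusted p = 0.46 in edgeR). That fold change was 0.44 without Dclk1+ library 1, 2.64 without Dclk1- library 6 and 0.68 without Dclk1- libraries 7 and 8. Itga10, a collagen receptor subunit known from cartilage, reached 19.98 CPM in Dclk1+ library 1, while every other library held 1.44 to 6.02 CPM (adjusted p = 0.487). Itga7, the laminin receptor subunit of muscle, reached 28 CPM in Dclk1+ library 1, with no other library above 0.97 CPM, and it had too few counts to be tested. Dclk1+ library 1 was also the library richest in smooth muscle markers, with Myh11 at 958 CPM, and in endothelial markers. Beside these integrins, the summed fibroblast markers were at 4529.5 to 25243 CPM over the Dclk1+ set and 868 to 6786 CPM over the Dclk1- set (0 of 6 called, none at 0 in any library), and the pericyte and smooth muscle markers at 103 to 1792 and 24.9 to 94.4 CPM (0 of 6 called, Cspg4 at 0 in Dclk1- library 8). Endothelial markers summed to 1942, 509, 913 and 651 CPM in Dclk1+ libraries 1 to 4 (0 of 6 called). Over the Dclk1- set their sum was 173 to 770.4 CPM. Most of the sum was 1 gene in some libraries: Tek at 457 CPM in Dclk1+ library 2, and Pecam1 at 159 and 154 CPM in Dclk1- libraries 7 and 8. Itga1 had the order of the endothelial sum within each group. The part of these cell types in the integrin differences was not tested.

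**Figure D2:**
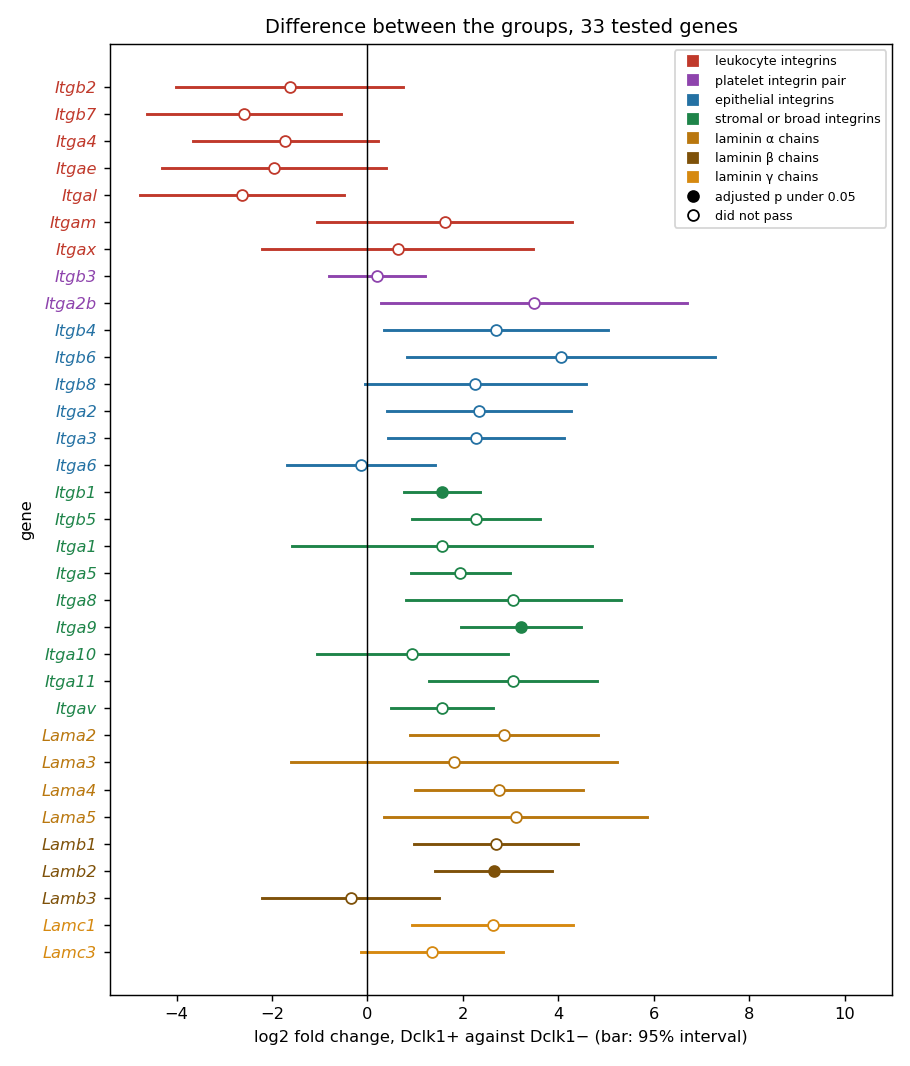
Log2 fold change of Dclk1+ against Dclk1- cells for 33 tested genes, with its 95% interval, from the edgeR fit over all genes, coloured by class and filled where the adjusted p was under 0.05. The filled points are Itgb1 (1.56), Itga9 (3.22) and Lamb2 (2.65), and 5 of 7 leukocyte integrin genes lie below 0.

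None of the 6 epithelial integrin genes was called, and 5 had a positive fold change. Itgb4, which pairs with α6 in the hemidesmosomes that anchor epithelial cells to laminin, was at 59.4, 2.65, 56.1 and 15.3 CPM across the Dclk1+ set and 7.49, 8.25, 0.193 and 4.51 CPM across the Dclk1- set. Dclk1+ libraries 1 and 3 stood above all others, while Dclk1+ library 2 lay below 3 of the 4 Dclk1- libraries (log2 fold change 2.69 ± 1.05, adjusted p = 0.117 in edgeR). Its partner Itga6 was at 73.9, 4.49, 85.8 and 49.6 CPM across the Dclk1+ set and 81.2, 72.1, 45 and 35.2 CPM across the Dclk1- set. The log2 fold change of Itga6 was -0.13 ± 0.69 (SE), with a 95% interval of -1.68 to 1.43 and an adjusted p of 0.916 in edgeR, and library 2 was again the lowest. Itga3, the α subunit of another laminin receptor, was at 5.1 to 33.2 CPM over the Dclk1+ set and 0.501 to 7.04 CPM over the Dclk1- set (adjusted p = 0.0995). The values of Itga2, a collagen receptor subunit, were 5.89 to 28.7 and 0.579 to 7.35 CPM (adjusted p = 0.103). Itga2 differed from Itga3, Itga6 and Itgb4 in Dclk1+ library 2, where it was at 26.8 CPM, close to the 28.7 CPM of library 1. Itgb6 and Itgb8, whose αV pairs free active TGF-β from its latent form, were both highest in Dclk1+ library 3, the library richest in duct markers, at 40.3 and 30.5 CPM. In the other Dclk1+ libraries Itgb6 was at 1.78 to 6.44 CPM and Itgb8 at 5.44 to 8.26 CPM, and both were at 0 in Dclk1- library 7 (adjusted p = 0.0951 and 0.165). The log2 fold change of Itgb6 was 4.05, and 2.41 without Dclk1+ library 3. The 8 duct epithelium markers summed to 97.4 to 1947 CPM over the Dclk1+ set and 16 to 76.4 CPM over the Dclk1- set, with Sox9 and Krt8 called higher and Onecut1 at 0 in Dclk1- libraries 7 and 8. Of the 8, Cdh1 is also in the list of leukocyte integrin ligands. The part of duct cells in the integrin values was not tested.

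No leukocyte integrin was called, but the lymphocyte genes Itgal, Itgb7, Itgae and Itga4 and the shared Itgb2 had negative fold changes. Those of the myeloid genes Itgam and Itgax were positive, but negative without Dclk1+ library 4 and by limma-voom. Itgal, the α subunit of the lymphocyte receptor LFA-1 that binds Icam1, was at 36.4, 5.41, 27.9 and 222 CPM across the Dclk1+ set and 308, 281, 631 and 584 CPM across the Dclk1- set. All Dclk1+ libraries lay below all Dclk1- libraries, but library 4 at 222 CPM came close to Dclk1- library 6 at 281 CPM. The log2 fold change was -2.63 ± 0.95 (SE), with a 95% interval of -4.76 to -0.50 and an adjusted p of 0.0984 in edgeR. Itgb7, the β subunit of the gut-homing lymphocyte receptors, was at 30.6, 2.65, 7.71 and 82 CPM across the Dclk1+ set and 125, 109, 275 and 229 CPM across the Dclk1- set. It did not overlap either, and its log2 fold change was -2.58 ± 0.90 (SE), with a 95% interval of -4.61 to -0.55 and an adjusted p of 0.0926 in edgeR. Itgae, the αE partner of β7 that binds E-cadherin, was at 0.777, 0.816, 11.9 and 38.8 CPM across the Dclk1+ set and 43.2, 34, 63.5 and 62.1 CPM across the Dclk1- set. Dclk1+ libraries 1 and 2 had under 1 CPM, while library 4 lay between the Dclk1- libraries (log2 fold change -1.96 ± 1.05, adjusted p = 0.226 in edgeR). Itga4, which pairs with β7 or β1 and is not confined to leukocytes, was at 148, 16.4, 53.2 and 394 CPM across the Dclk1+ set and 798, 697, 206 and 319 CPM across the Dclk1- set, with a log2 fold change of -1.72 ± 0.86 (adjusted p = 0.199 in edgeR). Its exons share bases with Cerkl on the opposite strand, and the labels do not state whether strand was used in counting. Dclk1+ library 4 had the highest Dclk1+ value of Itgal, Itgb7, Itgae and Itgb2. Without that library these 4 leukocyte genes were called lower, as were 6.23% of all genes. The log2 fold changes of the 4 were then -4.15 for Itgal, -3.63 for Itgb7, -3.36 for Itgae and -3.55 for Itgb2 (edgeR adjusted p = 0.013, 0.0243, 0.045 and 0.0238).

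The β2 partners of myeloid cells had their highest level in Dclk1+ library 4 and did not separate the groups. Itgam, the αM subunit of the macrophage and neutrophil receptor Mac-1 (CD11b), was at 22.3, 3.06, 91 and 682 CPM across the Dclk1+ set and 54.5, 85.9, 53.1 and 66.6 CPM across the Dclk1- set. Dclk1+ library 4 was above every other library and Dclk1+ libraries 1 and 2 were below every Dclk1- library, so the groups overlapped. The log2 fold change was 1.62 ± 1.19 (SE), with a 95% interval of -1.06 to 4.29 and an adjusted p of 0.37 in edgeR, but -0.59 without library 4 and -0.50 by limma-voom. Itgax, the αX subunit (CD11c) of dendritic cells and some macrophages, was at 1.33, 0.408, 21.4 and 133 CPM across the Dclk1+ set and 31.9, 22.8, 23 and 23.4 CPM across the Dclk1- set. It had the same order among Dclk1+ libraries, with a log2 fold change of 0.63 ± 1.26 (adjusted p = 0.757 in edgeR) that turned to -1.55 without library 4 and to -2.01 by limma-voom. Itgb2, the β subunit that both share with Itgal, was at 21.1, 3.98, 50.9 and 346 CPM across the Dclk1+ set and 217, 215, 457 and 413 CPM across the Dclk1- set. Library 4 thus had as much Itgb2 as the Dclk1- libraries, and the log2 fold change was -1.63 ± 1.06 (adjusted p = 0.313 in edgeR), or -0.93 without Dclk1- libraries 7 and 8. Itgad, the αD subunit, had at most 1.74 CPM in any library and was not tested. Itgam, Itgax and Itgad are adjacent coding genes on chromosome 7 in RefSeq's GRCm38.p6, and their sequences are related, so that a few reads may be assigned to the wrong member.

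The make-up of the reads of β2 partners differed between libraries. Itgal took 77.9%, 71.9%, 89% and 86.6% of the Itgal, Itgam, Itgax and Itgad reads in Dclk1- libraries 5 to 8. The same share was 60.6% and 60.9% in Dclk1+ libraries 1 and 2 (95% Wilson intervals 56.5% to 64.7% and 50.4% to 70.5%, on 541 and 87 reads). In Dclk1+ libraries 3 and 4 it was 19.9% and 21.4% (intervals 17.8% to 22.1% and 20.5% to 22.2%), so that most of those reads were from Itgam. The intervals cover counting error only, because amplified reads are not independent molecules. Per kilobase of the longest coding transcript, Itgb2 was at 73.2, 72.2, 154 and 139 CPM per kb in Dclk1- libraries 5 to 8, above Itgb1 at 39.7, 47.1, 32.7 and 23.2 CPM per kb. In Dclk1+ libraries 1 to 3 Itgb1 was instead the higher of the pair, at 86.8, 149.8 and 108 against 7.1, 1.34 and 17.1 CPM per kb. Library 4 had 75.7 CPM per kb of Itgb1 and 116 of Itgb2, the order seen in Dclk1- cells.

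Leukocyte markers moved with some of these integrins. The 7 T lymphocyte markers summed to 14.6 to 411 CPM over the Dclk1+ set and 716 to 2992 CPM over the Dclk1- set, with Lat called lower, and the 7 B lymphocyte markers to 30.7 to 475 and 1788 to 2343 CPM, with Pax5 called lower. For all 14 the groups did not overlap, as for 10.9% of all genes in this direction, and none was at 0 in any library. In Dclk1- libraries 5 to 8 the T lymphocyte sum was 965, 716, 2992 and 2363 CPM. Itgal, Itgb7, Itgae and Itgb2 had that order there, while Itga4, at 798, 697, 206 and 319 CPM, did not. In Dclk1+ libraries 1 to 4 the T lymphocyte sum was 122, 14.6, 84.8 and 411 CPM. There Itgal, Itgb7 and Itga4 had its order, and Itgae and Itgb2 did not. The 7 myeloid markers held no call and summed to 167, 44.6, 784 and 5352 CPM in Dclk1+ libraries 1 to 4. Their sum was 547, 931, 700.4 and 382 CPM in Dclk1- libraries 5 to 8. Itgam had the order of this sum among the Dclk1+ libraries but not among the Dclk1- libraries. Csf1r, the receptor that defines macrophages, reached 832 CPM in Dclk1+ library 4, with no other library above 115 CPM. The part of these cells in the integrin values was not tested.

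**Figure D3:**
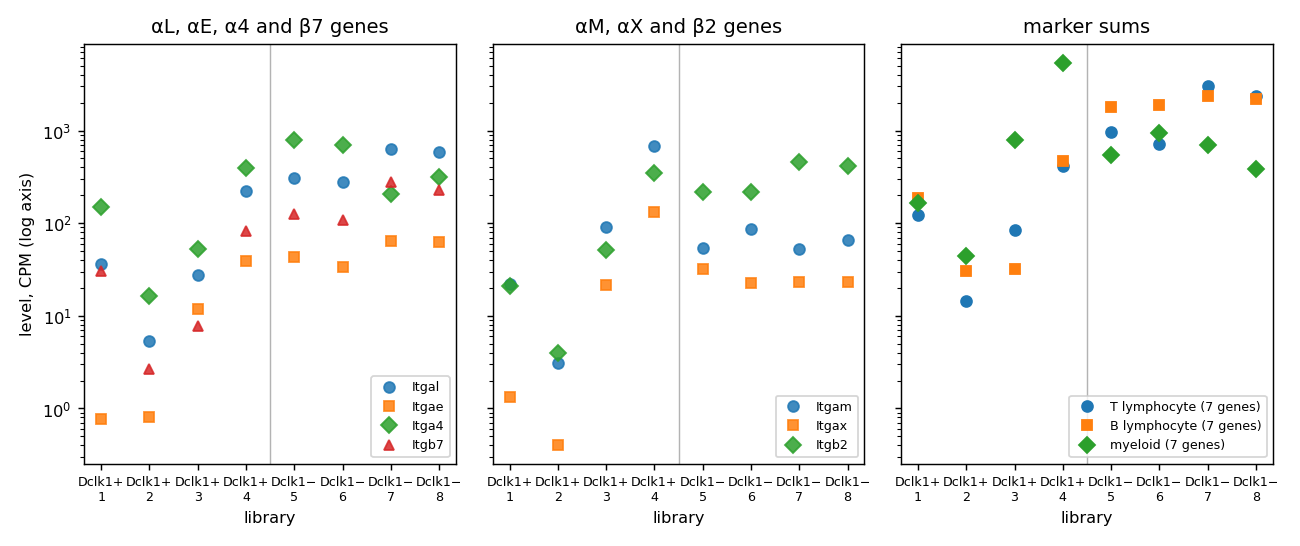
Level in CPM (log axis) in each library of 4 lymphocyte integrin genes (left), of Itgam, Itgax and their partner Itgb2 (middle) and of the summed T lymphocyte, B lymphocyte and myeloid markers (right), with a line between the groups. In Dclk1+ library 4 Itgam reached 682 CPM and the myeloid sum 5352 CPM, while Itgal stayed at 222 CPM.

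The promoter window of Itgam (RefSeq, GRCm38.p6) is shown because its 682 CPM in Dclk1+ library 4 was the highest level of any leukocyte integrin in the Dclk1+ libraries, with capitals as for Itgb1.
Itgam, chr7:128062390-128062639 (+ strand): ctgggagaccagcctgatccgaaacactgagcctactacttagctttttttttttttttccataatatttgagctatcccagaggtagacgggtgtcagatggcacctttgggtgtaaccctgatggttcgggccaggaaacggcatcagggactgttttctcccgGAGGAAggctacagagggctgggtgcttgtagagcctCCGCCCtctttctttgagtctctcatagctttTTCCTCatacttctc
It held 2 matches to GAGGAA, which start 84 and 15 bases before the annotated start, and 1 to GGGCGG. The window of Itgb7 held neither motif, and that of Itgax held an AP-1 motif (TGANTCA, found in 6.75% of all windows) and neither of the others.

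Neither gene of the platelet pair was called. Itgb3, which pairs with αIIb on platelets and with αV on other cells, was at 179, 144, 40.8 and 79.4 CPM across the Dclk1+ set and 88.1, 106, 68.6 and 125 CPM across the Dclk1- set. The values of the groups were mixed, and the log2 fold change was 0.20 ± 0.45 (SE), with a 95% interval of -0.81 to 1.21 and an adjusted p of 0.786 in edgeR. Itga2b, the αIIb subunit of platelets and their precursors, reached 39.6 CPM in Dclk1+ library 1, with no other library above 3.2 CPM (adjusted p = 0.131). Its log2 fold change of 3.49 was 1.05 without Dclk1+ library 1. The 5 platelet markers summed to 17.8, 3.67, 13.4 and 136 CPM in Dclk1+ libraries 1 to 4 and to 0.966 to 25 CPM in Dclk1- libraries. In library 1 Ppbp was at 14.9 CPM and Gp6 and Gp1bb were at 0, and in library 4 most of the sum was Pf4 at 134 CPM. The part of platelets in the Itga2b value was not tested.

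Lamb2 was called higher in Dclk1+ cells. Lamb2, the β2 chain of vessel, muscle and kidney basement membranes, was at 201, 289.8, 164 and 58.4 CPM across the Dclk1+ set and 18.8, 36, 43.8 and 15.2 CPM across the Dclk1- set. Every Dclk1+ library exceeded every Dclk1- library, at 178 ± 95.8 CPM for Dclk1+ against 28.5 ± 13.7 CPM for Dclk1- (SD, n = 4 each), and the log2 fold change was 2.65 ± 0.55 (SE), with a 95% interval of 1.42 to 3.87 and an adjusted p of 0.0469 in edgeR. Lamb3 and Lama3, chains of the laminin that hemidesmosomes bind, were not called. Lamb3 was at 0.714 to 2.0 CPM over the Dclk1+ set and 0.386 to 4.17 CPM over the Dclk1- set (log2 fold change -0.35 ± 0.83, adjusted p = 0.794 in edgeR), with its highest value in Dclk1- library 8. Lama3 was at 164, 2.35, 55.9 and 27.6 CPM across the Dclk1+ set and 24.2, 45.9, 0.386 and 0 CPM across the Dclk1- set, lowest among the Dclk1+ libraries in library 2 (log2 fold change 1.81 ± 1.52, adjusted p = 0.43 in edgeR). Its fold change was 0.688 without Dclk1+ library 1, 3.12 without Dclk1- library 6 and 0.913 without Dclk1- libraries 7 and 8. The promoter window of Lamb2 (RefSeq, GRCm38.p6), with capitals as above, is shown because the gene was called.
Lamb2, chr9:108479612-108479861 (+ strand): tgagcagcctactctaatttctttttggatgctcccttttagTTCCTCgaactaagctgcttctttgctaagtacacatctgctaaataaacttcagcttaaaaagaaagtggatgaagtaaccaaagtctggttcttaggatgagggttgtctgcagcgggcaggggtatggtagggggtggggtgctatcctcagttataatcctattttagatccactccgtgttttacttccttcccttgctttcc
It held 1 match to GAGGAA and none to GGGCGG.

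Lamc1, Lamb1, Lama2 and Lama4, the chains of the laminins of mesenchyme and vessels, shared 1 order of the Dclk1+ libraries and were not called. Lamc1, the γ1 chain present in most laminins, was at 965, 3138, 1383 and 374 CPM across the Dclk1+ set and 131, 287, 450.4 and 83.5 CPM across the Dclk1- set. Dclk1+ library 2 was the highest and Dclk1- library 7 exceeded Dclk1+ library 4, so the groups overlapped. Its log2 fold change was 2.62 ± 0.75 (SE), with a 95% interval of 0.93 to 4.31 and an adjusted p of 0.0637 in edgeR. Lamb1 was at 378, 1076, 453 and 103 CPM across the Dclk1+ set and 52.2, 114, 123 and 21.2 CPM across the Dclk1- set and had a log2 fold change of 2.69 ± 0.76 (adjusted p = 0.0623 in edgeR). Lama2, the α2 chain of muscle and mesenchyme, was at 577, 2109, 850.2 and 134 CPM across the Dclk1+ set and 83.2, 205, 191 and 25.9 CPM across the Dclk1- set (log2 fold change 2.86 ± 0.88, adjusted p = 0.0708 in edgeR). Lama4, the α4 chain of vessel walls and other mesenchyme, was at 285, 981, 536 and 153 CPM across the Dclk1+ set and 48.2, 94, 135 and 12.4 CPM across the Dclk1- set, and for it the groups did not overlap (log2 fold change 2.75 ± 0.79, adjusted p = 0.0626 in edgeR). Library 2 was the highest for all 4 genes and library 4 the lowest Dclk1+ library. Per kilobase the order was Lamc1 at 192, Lama2 at 95.4, Lamb1 at 86.9, Lama4 at 80.8 and Lamb2 at 31.7 CPM per kb as the mean of the Dclk1+ libraries. Lamc1 was above the other 4 in each of the 8 libraries, while Lama2, Lamb1 and Lama4 changed places between libraries. Without Dclk1+ library 4 all 4 were called higher, as were 12.1% of all genes, with log2 fold changes of 3.03, 3.13, 3.32 and 3.14. With any other single library left out, no gene was called. The fibroblast marker sum had the order of these 4 genes in the Dclk1+ libraries, from library 2 through 3 and 1 to 4. In Dclk1- libraries 5 to 8 that sum was 868, 2368, 6786 and 1234 CPM, lowest in library 5. All 4 genes were instead lowest in Dclk1- library 8. The part of fibroblasts in their values was not tested.

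The α chains of epithelial laminins had another order. Lama5, the α5 chain of most epithelial and vessel basement membranes, was at 113, 3.98, 68.5 and 27.3 CPM across the Dclk1+ set and 6.76, 16.5, 0.193 and 0.835 CPM across the Dclk1- set. It was high in Dclk1+ libraries 1 and 3 and low in library 2, as Itgb4 was (log2 fold change 3.11 ± 1.23, adjusted p = 0.122 in edgeR). The endothelial marker sum, at 1942, 509, 913 and 651 CPM, had the order of Lama5 and Lama3 in the Dclk1+ libraries. In the Dclk1- libraries it had the order of Lama3 but not of Lama5. The duct marker sum, at 500.0, 97.4, 1947 and 359 CPM, was highest in library 3. The part of either cell type was not tested. Lama3 and Lama5 together took 24.3%, 0.204%, 8.21% and 16% of the α chain reads in Dclk1+ libraries 1 to 4, and 19%, 17.2%, 0.177% and 2.14% in Dclk1- libraries 5 to 8, so the share did not separate the groups. In Dclk1- libraries 7 and 8 these were 3 and 5 reads (95% Wilson intervals 0.0604% to 0.52% and 0.916% to 4.9%). Lama1, the α1 chain of early embryos, reached 5.18 CPM in Dclk1+ library 3, with no other library above 1.02 CPM, and was not tested. Lamc3, the γ3 chain, was at 2.89 to 12.2 CPM over the Dclk1+ set and 0.881 to 5.21 CPM over the Dclk1- set (adjusted p = 0.192).

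**Figure D4:**
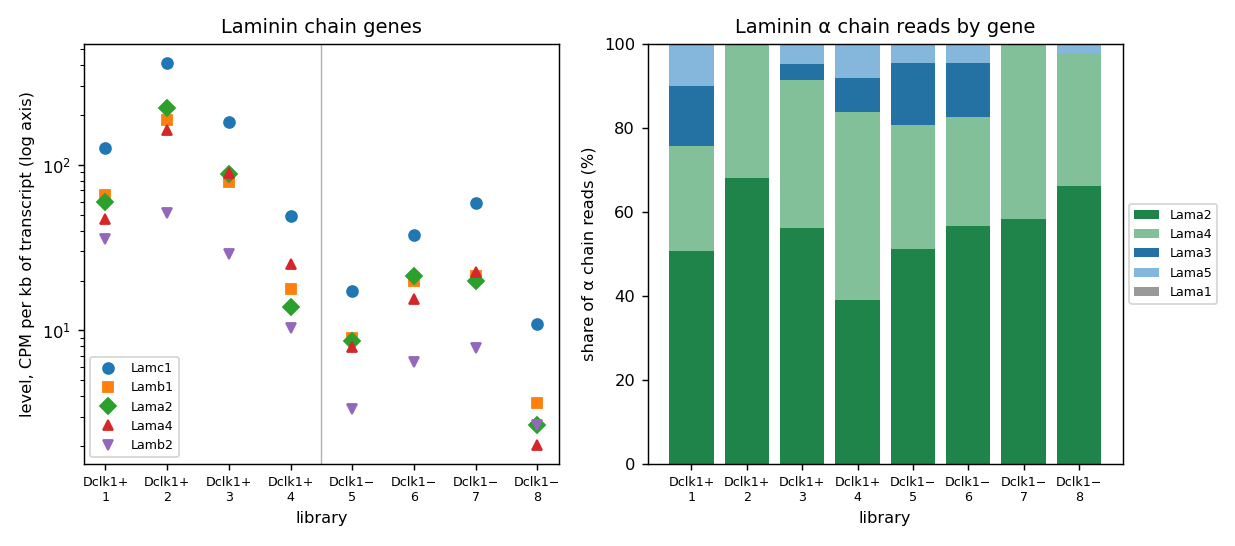
Left, level of 5 laminin chain genes in CPM per kilobase of transcript (log axis) in each library; right, share of the reads of all 5 laminin α chain genes that came from each gene, in percent. Lamc1 lies highest in each library on the left, and on the right Lama3 and Lama5 (blue) make up 24.3% in Dclk1+ library 1 and 0.204% in Dclk1+ library 2.

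Genes that work with integrins and laminins were read from the same fit. Of 57 tested, 4 were called higher and 1 lower, where 2.47% and 1.02% of all genes were. Their median log2 fold change was 0.73, beside -0.08 for all genes. Among 14 adaptors of adhesion sites Parva and Tns1 were called higher. Parva, the α-parvin that joins integrin-linked kinase to actin, was at 142, 182, 140.5 and 47.1 CPM across the Dclk1+ set and 9.26, 22.2, 38.8 and 9.18 CPM across the Dclk1- set (log2 fold change 2.69 ± 0.59, adjusted p = 0.0492 in edgeR). Tns1, the actin linker tensin 1, was at 1039, 952, 904 and 508 CPM across the Dclk1+ set and 136, 201, 210.2 and 45.6 CPM across the Dclk1- set (log2 fold change 2.52 ± 0.52, adjusted p = 0.0469 in edgeR). In both genes every Dclk1+ library was above every Dclk1- library. Of 7 tested basement membrane partners Ntn4 was called higher, and for 6 every Dclk1+ library was above every Dclk1- library, as for 10.7% of all genes. Ntn4, the laminin-binding netrin 4, was at 8.22 to 99.7 CPM over the Dclk1+ set and 3.23 to 6.35 CPM over the Dclk1- set (log2 fold change 3.21 ± 0.72, adjusted p = 0.0492 in edgeR). Vcam1, which leukocyte α4β1 and also α9β1 bind, was the called gene among 5 tested ligands of leukocyte integrins, at 273, 58.2, 63.7 and 55.8 CPM across the Dclk1+ set and 19, 11.6, 24.5 and 19.9 CPM across the Dclk1- set (log2 fold change 2.59 ± 0.59, adjusted p = 0.0492 in edgeR). The gene called lower was Rasgrp2, an exchange factor that activates Rap1 and through it integrins in blood cells, and 1 of 6 blood cell activators tested. Rasgrp2 was at 11.5, 8.67, 4.41 and 15.9 CPM across the Dclk1+ set and 64.8, 57.6, 54.3 and 68.6 CPM across the Dclk1- set. All 4 Dclk1+ values were below the Dclk1- values, and the log2 fold change was -2.60 ± 0.41 (SE), with a 95% interval of -3.51 to -1.69 and an adjusted p of 0.0466 in edgeR.

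The other lists of partners held no call. Among 6 general activators, Tln1, the talin that switches integrins on, had a log2 fold change of -0.60 ± 0.43 (adjusted p = 0.358 in edgeR) and Rap1b one of -0.37 ± 0.34 (adjusted p = 0.481 in edgeR). Of the 6, 3 had a negative fold change and overlapping groups. Tln2, Fermt1 and Fermt2 were higher in every Dclk1+ library than in any Dclk1- library, as for 10.7% of all genes. Tln2, the other talin, had a log2 fold change of 1.93 ± 0.49 (adjusted p = 0.0529 in edgeR). Among 6 kinases and docking proteins of adhesion sites, Nedd9 had a log2 fold change of -1.43 ± 0.47 (adjusted p = 0.081 in edgeR) and Ptk2b one of -2.48 ± 0.63 (adjusted p = 0.0529 in edgeR). The fold changes of Ptk2, Src and Bcar1 were positive, at 1.61, 2.16 and 2.17 on the log2 scale (edgeR adjusted p = 0.155, 0.105 and 0.147). The 4 inhibitors included Sharpin, with a log2 fold change of -1.05 ± 0.35 (adjusted p = 0.0819 in edgeR), and Itgb1bp1, with one of -0.00312 ± 0.33 (adjusted p = 0.996 in edgeR). Of 4 hemidesmosome genes, the linkers Dst and Plec had log2 fold changes of 2.84 ± 0.86 (adjusted p = 0.0682 in edgeR) and -0.07 ± 0.34 (adjusted p = 0.905 in edgeR), and Col17a1, which is particular to hemidesmosomes, was at most 5.0 CPM in any library. Dystroglycan (Dag1), a laminin receptor outside the integrin family, had a log2 fold change of 1.795 ± 0.44 (adjusted p = 0.0516 in edgeR) and Rpsa, a ribosomal protein also described as a laminin receptor, one of -2.01 ± 0.71 (adjusted p = 0.0937 in edgeR), among 5 such genes. Tln2, Ptk2, Src, Bcar1, Col17a1 and the 3 kindlin genes were chosen after their values were seen. The kindlin genes peaked in different libraries. Fermt2, the kindlin of stromal cells, was at 158, 261, 128 and 44.3 CPM across the Dclk1+ set and 28.8, 43.3, 25.1 and 8.68 CPM across the Dclk1- set. Fermt1, the epithelial kindlin, was highest in Dclk1+ library 3 at 87.9 CPM, and Fermt3, the blood cell kindlin, was at 16.3, 0.816, 10.03 and 98.2 CPM across the Dclk1+ set and 62.4, 63.4, 193 and 138 CPM across the Dclk1- set. None of the 3 passed (edgeR adjusted p = 0.0516, 0.0761 and 0.252).

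Leaving out libraries moved Itga9, Itgb1 and Lamb2 less than the myeloid integrins. These 3 were named because they were called with all 8 libraries, so their smaller shifts are no separate evidence. None of the 3 was called when 1 library other than Dclk1+ library 4 was left out. Itga9 and Lamb2 were called under each of the 8 other scalings, filters and tools tried with all 8 libraries, while Itgb1 missed the threshold in 3 of them. With 1 library left out, the log2 fold change of Itga9 ran from 2.91 to 3.65, that of Itgb1 from 1.33 to 1.83 and that of Lamb2 from 2.30 to 3.05. The ranges of Itgam and Itgax crossed 0, from -0.59 to 2.02 and from -1.55 to 1.04. By highest value, Dclk1+ library 1 led 12, library 2 led 10, library 3 led 6 and library 4 led 2 of the 37 genes, and Dclk1- library 7 led 5, all of them leukocyte integrins.

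**Figure D5:**
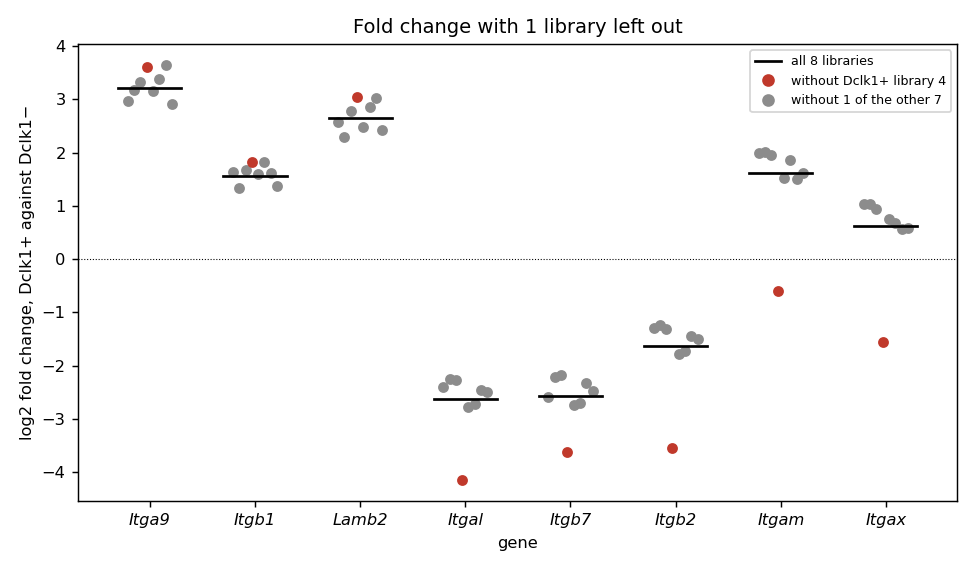
Log2 fold change of 8 genes with all 8 libraries (black line) and with each library left out in turn (points), Dclk1+ library 4 in red. Itgam and Itgax lie above 0 in every case except without Dclk1+ library 4 (-0.59 and -1.55), while Itga9, Itgb1 and Lamb2 stay above 0 throughout. No gene was called when a library other than Dclk1+ library 4 was left out.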

How the data were processed

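RNA of 8 libraries was prepared with the RNAqueous-Micro kit, amplified with NuGEN Ovation V2 and made into TruSeq libraries, per the labels' protocols. The authors deposited raw counts of reads per gene symbol for all 8 libraries. The submitters' processing notes name bcl2fastq 1.8.4, HTSeq 0.6.1 and mm9, and they list Bowtie 0.12.7 with TopHat except for Dclk1- library 5, where TopHat2 2.0.4 with Bowtie2 2.0.0 stands. The effect of this difference in aligner was not tested, and the annotation is not given in the sources used here. Reads carry no molecular identifiers that the labels mention, and amplification can change the relative counts of genes.

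From the counts, genes with too few reads were removed (filterByExpr, minimum count 10), libraries were scaled with TMM, and Dclk1+ was compared with Dclk1- by the quasi-likelihood test of edgeR 4.0.16 in R 4.3.3, with Benjamini-Hochberg adjustment over all 13274 genes and a threshold of 0.05. CPM are counts per 1000000 of the TMM-scaled library size. DESeq2 1.42.0, limma-voom (limma 3.58.1), other scalings and filters and leaving out libraries were alternatives. Pairs of libraries in a group differed by more than counting noise, from a chi-square per degree of freedom of 19.8 for Dclk1- libraries 5 and 6 (Spearman 0.972 across genes) to 296 for Dclk1+ libraries 2 and 4. Amplified repeats of 1 sample could also differ by more than counting noise, so this does not show separate samples, and all 8 were counted singly. Lengths are of the longest coding transcript in GENCODE M21 and promoter windows and neighbouring genes are from RefSeq, both on GRCm38. The genes and lists were chosen with earlier results of these data known. The counts are over all 37 genes, and the result of 1 of them is not reported here. Named are the other genes, every called gene of each list of partners and, where none was called, the 2 tested genes of highest mean CPM, with exceptions named where they stand.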

Additional observations from a re-analysis of the deposited data

Results flagged for a closer look

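In 10 of 74 sets of 4 values (37 genes in 2 groups), 1 library lay apart from the other 3 by Dixon's criterion. Independent sets of normal values would give about 1 in 20, or 3.7. The genes share the same libraries and CPM need not be normal, so the 10 cannot be read against the 3.7. Dclk1+ library 4 was set apart for 5 leukocyte integrin genes: Itgam at 682 CPM, Itgb2 at 346 CPM, Itgal at 222 CPM, Itgax at 133 CPM and Itgad at 0.778 CPM. The 7 T lymphocyte markers of that library summed to 411 CPM and the 7 myeloid markers to 5352 CPM, and their part in these values was not tested. Dclk1+ library 3 was set apart for Itgb6 at 40.3 CPM and Itgb8 at 30.5 CPM, and Dclk1+ library 1 for Itga2b at 39.6 CPM and Itga7 at 28 CPM. In Dclk1- cells, Itgax of library 5 was apart at 31.9 CPM, the other 3 libraries being at 22.8 to 23.4 CPM.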

How the results depend on the processing

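The number of integrin and laminin genes called higher (4) was 7 with DESeq2's size factors in edgeR, 2 with upper quartile scaling, 19 by DESeq2, 7 with no filter on low counts, 2 with a filter of 1 CPM in 4 libraries, 2 with a robust spread estimate and 0 without Dclk1- libraries 7 and 8. It was 5 by limma-voom and without the ribosomal precursor Rn45s. With 1 library left out it ranged from 0 to 14, the 14 being without Dclk1+ library 4, and the number called lower (0) ranged from 0 to 4. DESeq2 and limma-voom each called 2 lower, Itgal and Itgb7. With 1 other library left out, 15 to 22 of the genes had an unadjusted p under 0.05.

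Over all genes, 328 were called higher, and the count was 665 with DESeq2's size factors, 543 without Rn45s, 2565 by DESeq2, 793 with no filter, 218 with the 1 CPM filter, 185 with robust spread, 0 without Dclk1- libraries 7 and 8 and 0 to 1640 with 1 library left out. The 135 called lower became 1125 by DESeq2, 475 by limma-voom, 264 with no filter, 88 with the 1 CPM filter, 71 with robust spread, 0 without Dclk1- libraries 7 and 8 and 0 to 841 with 1 library left out. Higher calls were 70.8% of all calls in edgeR and 46.1% in limma-voom. DESeq2's median log2 fold change of all genes was 0.178, beside -0.0776 in edgeR. The fits with no calls had 3092 to 4005 genes with an unadjusted p under 0.05. Of the partner genes, 5 were called, against 10 with DESeq2's size factors, 3 with upper quartile scaling, 10 without Rn45s, 32 by DESeq2, 13 by limma-voom, 16 with no filter, 2 with the 1 CPM filter, 2 with robust spread, 0 without Dclk1- libraries 7 and 8 and 0 to 28 with 1 library left out.

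Fold changes of 6 genes that were not called turned sign. By limma-voom, Itgam was at -0.504 and Itgax at -2.01 on the log2 scale. Lamb3 was at 0.311 without Dclk1- libraries 7 and 8. With 1 library left out, Itga10 ran from -0.325 to 1.44, Itga6 from -0.329 to 0.25, Itgam from -0.593 to 2.02, Itgax from -1.55 to 1.04, Itgb3 from -0.136 to 0.602 and Lamb3 from -0.617 to 0.544. The cause was not tested for any of these shifts. No paired analysis was possible because the replicate numbers of the groups (1 to 4 and 5 to 8) are not shared. Depth limits the low genes: 3 counts are 0.306 to 0.579 CPM, so values of Itgad, Itga7, Lama1 and Lamb3 in most libraries rest on few reads.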

Other observations

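Itga1 and Itga2, both collagen receptor subunits, are adjacent coding genes on chromosome 13 in RefSeq's GRCm38.p6. In Dclk1+ library 2 Itga2 was at 26.8 CPM, close to its level in library 1, while Itga1 was at 14.1 CPM there and at 227 CPM in library 1.

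Itgb1 took 48.8%, 66.8%, 59.4% and 33.8% of the reads of the 8 β subunit genes in Dclk1+ libraries 1 to 4 and 25%, 28.4%, 13.1% and 10.2% in Dclk1- libraries 5 to 8. The groups did not overlap, though library 4 was nearer to the Dclk1- libraries than to the other Dclk1+ libraries.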
